A study of Mus musculus with 8 samples.

Results

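The circadian clock genes are the transcription factors and inhibitors whose feedback loop gives cells a daily rhythm of gene expression. Members were the genes Arntl, Clock, Npas2, Per1, Per2, Per3, Cry1, Nr1d1, Nr1d2 and Dbp, each taken from the array row that the platform annotation assigns to that symbol alone. Of these 10 genes 9 had such a row, out of 22180 genes on the array that did. Per2 was not analysed here, because its row also carries the symbol of another gene.

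The samples were primary hepatocytes, the parenchymal cells of the liver, freed by collagenase perfusion from p16-/- mice and from p16+/+ littermates, with 4 samples of each genotype and 1 whole-transcript array per sample. Cells of both genotypes were plated with 10% serum, insulin at 100 nM and the synthetic glucocorticoid dexamethasone at 25 nM, and from 16 h after plating they spent 8 h in low-glucose medium (1 mM) with albumin at 0.1%. RNA was taken at 24 h, and the time of day of isolation or harvest is not given in the sources used here. The samples are labelled biological replicates with no statement of separate animals or preparations, so the p-values reflect only how far these samples spread, which may be technical; the deleted part of the gene, the strain, age and sex are not given either.

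CLOCK or its relative NPAS2 pairs with BMAL1, the product of Arntl, and the pair binds E-boxes to switch on the Per, Cry, Nr1d and Dbp genes. PER and CRY proteins then block the pair, while the nuclear receptors REV-ERB alpha and beta, the products of Nr1d1 and Nr1d2, repress Arntl, Clock and Npas2 in competition with ROR activators. In the liver this loop times the genes of sugar, lipid and bile acid metabolism, and it is reset by feeding, by temperature and by glucocorticoids, which induce Per1 directly.

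Values are log2 expression as the authors deposited them, and a change is knockout minus wild type on that scale. The row for Cdkn2a, the gene that encodes p16, ranged from 4.16 to 4.91 over the 8 arrays with overlapping groups (4.53 ± 0.28 in wild type and 4.53 ± 0.31 in knockout, SD, n = 4); whether its probes lie in the deleted part is not given, so it does not check the genotype. The mean of 10 hepatocyte markers was 10.1 to 10.3 on the wild type and 10.7 to 10.9 on the knockout arrays, and Alb, which encodes albumin, lay between 13.50 and 13.59 on all 8. The mean of 10 sinusoidal endothelial markers ran from 6.18 to 6.39 in wild type and from 4.84 to 5.09 in knockout, that of 10 Kupffer cell markers from 5.37 to 5.52 and from 4.55 to 4.71, that of 10 stellate cell and fibroblast markers from 5.03 to 5.08 and from 4.41 to 4.55, and that of 4 cholangiocyte markers from 5.31 to 5.49 and from 5.06 to 5.43. Of these lists 7, 0, 1, 1 and 0 genes were called higher and 0, 10, 8, 4 and 0 lower in the knockout, in that order (limma; at an unadjusted p under 0.05, 9, 0, 1, 1 and 0 higher and 0, 10, 8, 5 and 1 lower). All results below come from the same arrays. The part of these shifts in the clock results was not tested, and in a bulk sample fewer cells of a type and less RNA per cell cannot be told apart.

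Per1 rose in the knockout, and it was the 1 member of 9 tested that passed the test across all genes. The test took in genes with a mean level above 3.32. The background was 13.8% of 15380 genes called in either direction and 7.02% called higher (limma, adjusted p under 0.05), so 1 call among 9 members is close to the share over all genes. No member was called lower; at an unadjusted p under 0.05 the counts were 1 higher and 1 lower, the latter being Clock. The median change of the members was -0.099, against -0.025 over all genes tested. Clock was called lower, beside Per1 called higher, under an intensity trend in the variance model (limma adjusted p = 0.0457) or without knockout replicate 3 (adjusted p = 0.0497). The other alternatives called no member beside Per1.

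Per1 encodes a PERIOD protein, an inhibitor in the loop whose gene also answers within a short time to glucocorticoids and to cAMP. Its level was 7.46, 7.59, 7.62 and 7.96 on wild type arrays 1 to 4 and 9.13, 9.32, 9.15 and 8.84 on knockout arrays 1 to 4. Every knockout array lay above every wild type array, as for no other member (groups did not overlap for 20.2% of all genes tested), with knockout replicate 4 the lowest of its group and wild type replicate 4 the highest of its own. The change was 1.45 (SE 0.13, 95% interval 1.16 to 1.74, limma adjusted p = 3.32e-05), or 2.74-fold. Of the 15380 genes tested, 0.325% had a larger positive change. Over 19 alternatives the change stayed between 1.38 and 1.55, with both ends from leaving out an array, and it was 1.54 without knockout replicate 4. Several of the alternatives, such as other filters and variance models, cannot move the estimate.

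The other PERIOD gene measured did not pass the test. Per3, whose protein is thought to be less essential to the loop, was at 4.09, 3.98, 3.90 and 4.16 in wild type and at 4.04, 3.98, 3.92 and 3.76 in knockout. The groups overlapped, and the change of -0.11 had a 95% interval of -0.32 to 0.11 (SE 0.10, limma adjusted p = 0.549). That interval ends below the lower bound of the Per1 change on the same arrays.

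Cry1 encodes a CRYPTOCHROME, the partner of PER and the strongest repressor of the CLOCK and BMAL1 pair. It was at 7.10, 7.11, 7.39 and 7.15 in wild type and at 7.21, 7.13, 7.25 and 6.76 in knockout. The first 3 knockout arrays fell within the wild type range and replicate 4 lay below all other arrays. The change was -0.10 (SE 0.12, 95% interval -0.37 to 0.17, limma adjusted p = 0.663), and without knockout replicate 4 it was 0.0080.

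The paralogue Cry2 stands outside the 10 members, in a list of 24 other clock components, and rose. The symbol also appears in an array row annotated to several symbols, which was not used. On the row of its own Cry2 was at 5.0, 5.04, 4.87 and 5.23 in wild type and at 6.48, 6.52, 6.52 and 5.98 in knockout. The groups were apart by more than the spread within either, and knockout replicate 4 was again the lowest of its group. The change was 1.34 (SE 0.14, 95% interval 1.04 to 1.64, limma adjusted p = 7.34e-05), or 2.53-fold, and 0.41% of all genes tested had a larger positive change. Cry2 was thus higher by an amount within the interval of the Per1 change, while the interval of Cry1 reached 0.17 at most.

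**Figure D1:**
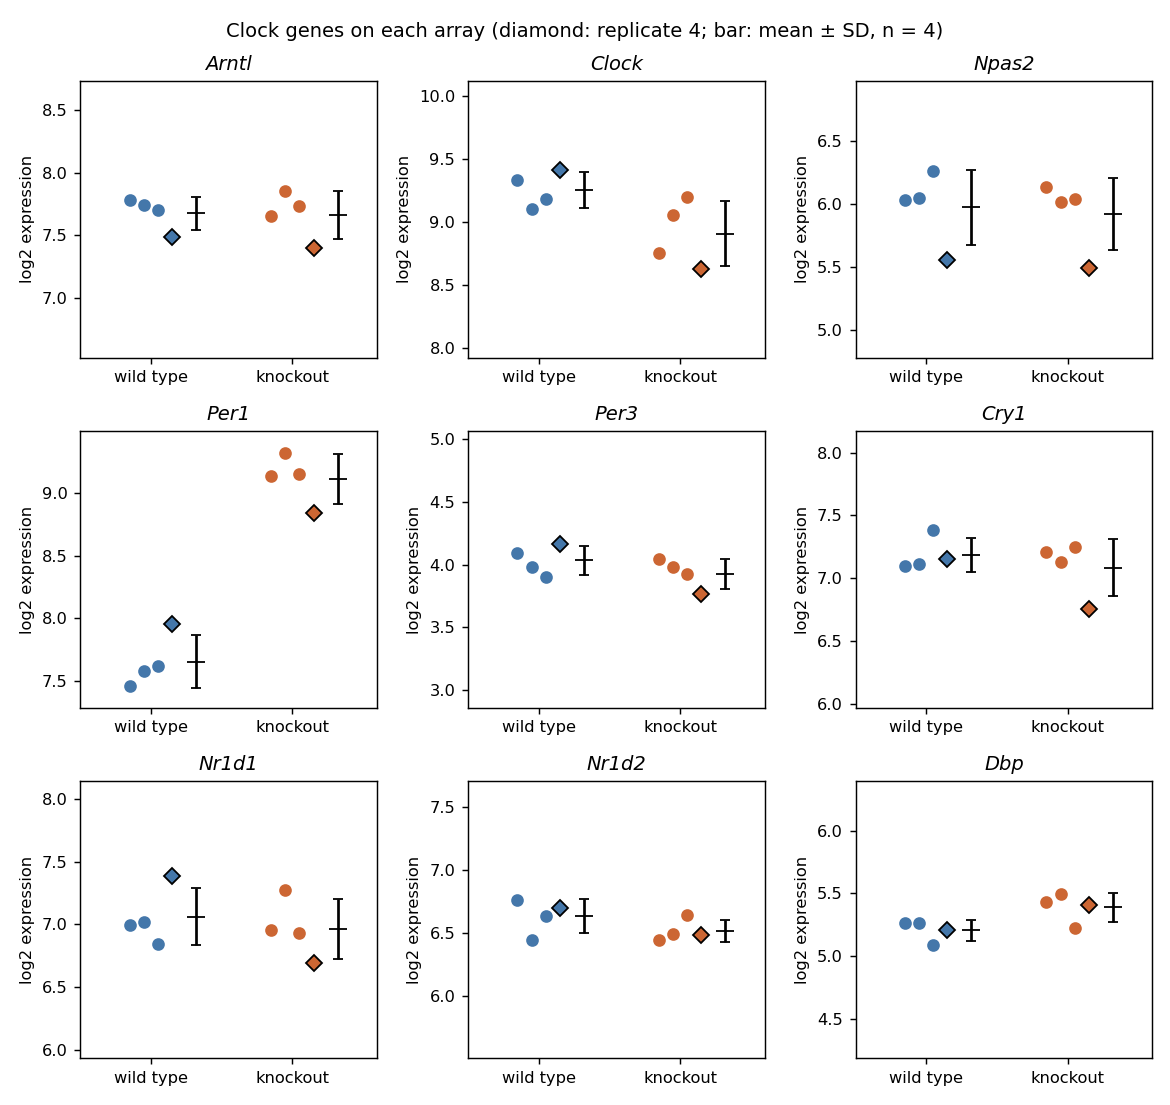
Log2 expression (vertical axes, each spanning the same range) of the 9 clock genes on the 4 wild type (blue) and 4 knockout (orange) arrays; diamonds are replicate 4 of each group and bars the mean ± SD, n = 4. Per1 is the 1 panel without overlap, with knockout arrays at 8.84 to 9.32 and wild type arrays at 7.46 to 7.96, and the diamond is the lowest point of all 8 in Arntl, Clock, Npas2, Per3, Cry1 and Nr1d1.

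The start regions of the PERIOD and CRYPTOCHROME genes are shown because each of these families holds a gene that rose and one that did not pass the test, together with that of Arntl, the gene on which the REV-ERB receptors act. All 9 members analysed had 1 or more windows in the RefSeq table for GRCm38.p6, each of 250 bases before to 50 after a transcript start, 13 windows in all. Both strands were searched for the E-box CACGTG (in 7.15% of 32851 windows of all genes), its variant CACGTT (4.68%), the D-boxes TTATGTAA (0.938%) and TTACGTAA (0.119%), which bind DBP and its relatives, the core of the ROR and REV-ERB element TAGGTCA (2.61%) and the cAMP response element TGACGTCA (1.79%). Where a gene had several windows, the one with the most matches is printed, so it was picked for its matches. Capitals mark matches, which do not overlap each other. The windows are chr11:69098699-69098998 on the plus strand for Per1, chr4:151044616-151044915 on the minus strand for Per3, chr10:85185005-85185304 on the minus strand for Cry1, chr2:92434020-92434319 on the minus strand for Cry2 and chr7:113207261-113207560 on the plus strand for Arntl, each written in the direction of its gene.
Per1: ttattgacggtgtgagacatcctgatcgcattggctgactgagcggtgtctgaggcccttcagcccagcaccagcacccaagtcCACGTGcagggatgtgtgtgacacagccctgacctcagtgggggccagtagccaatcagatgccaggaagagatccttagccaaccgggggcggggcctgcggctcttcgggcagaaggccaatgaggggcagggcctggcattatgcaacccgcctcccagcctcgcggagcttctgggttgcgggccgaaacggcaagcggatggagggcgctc
Per3: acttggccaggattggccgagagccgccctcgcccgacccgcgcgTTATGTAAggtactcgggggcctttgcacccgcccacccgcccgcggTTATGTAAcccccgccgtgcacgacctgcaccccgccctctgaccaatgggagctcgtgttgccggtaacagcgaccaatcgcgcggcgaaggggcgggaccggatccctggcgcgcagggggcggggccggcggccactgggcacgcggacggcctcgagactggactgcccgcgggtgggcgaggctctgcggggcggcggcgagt
Cry1: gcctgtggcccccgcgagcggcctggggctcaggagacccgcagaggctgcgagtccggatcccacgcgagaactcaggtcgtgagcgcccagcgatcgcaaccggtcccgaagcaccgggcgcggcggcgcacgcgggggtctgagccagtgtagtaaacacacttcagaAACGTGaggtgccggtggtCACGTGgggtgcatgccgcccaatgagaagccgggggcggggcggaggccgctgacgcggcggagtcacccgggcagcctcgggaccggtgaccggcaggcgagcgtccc
Cry2: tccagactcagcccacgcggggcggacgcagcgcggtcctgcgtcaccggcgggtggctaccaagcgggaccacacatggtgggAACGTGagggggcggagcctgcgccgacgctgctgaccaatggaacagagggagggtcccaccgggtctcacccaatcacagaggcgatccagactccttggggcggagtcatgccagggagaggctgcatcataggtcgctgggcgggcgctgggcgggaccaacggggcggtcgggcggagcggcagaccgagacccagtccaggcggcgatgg
Arntl: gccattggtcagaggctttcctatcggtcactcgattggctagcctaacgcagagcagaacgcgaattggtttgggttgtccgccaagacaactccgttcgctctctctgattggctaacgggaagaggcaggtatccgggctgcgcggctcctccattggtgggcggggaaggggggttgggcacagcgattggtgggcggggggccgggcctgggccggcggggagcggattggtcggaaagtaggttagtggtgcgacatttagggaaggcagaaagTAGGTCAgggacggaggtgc

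Per1 has an E-box that begins 166 bases before this start, and its other window in the table holds no match. Cry1 has an E-box 60 bases and the variant, read as AACGTG, 79 bases before its start, and Cry2 has AACGTG 166 bases before its start. Per3 carries the D-box TTATGTAA at 2 places, 205 and 158 bases before its start, and Arntl has TAGGTCA from base 31 of the transcript in 1 of its windows. Nr1d1 has AACGTG 28 bases before its start, and the windows of Clock, Npas2, Nr1d2 and Dbp held no match. An exact E-box was thus present in the window of Per1, which rose, and of Cry1, which did not pass the test, and absent from that of Cry2, which rose. A match is a description of letters in a window and not a measured site, and no match says only that these letters are not in that window.

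The activating arm of the loop showed no call. Arntl, which encodes BMAL1, was at 7.78, 7.74, 7.70 and 7.48 in wild type and at 7.65, 7.85, 7.73 and 7.40 in knockout. Replicate 4 was the lowest array of each group, and the groups overlapped almost fully. The change was -0.017 (SE 0.11, 95% interval -0.27 to 0.23, limma adjusted p = 0.950), and without knockout replicate 4 it was 0.069.

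Npas2 encodes the relative of CLOCK that can stand in for it. It was at 6.03, 6.05, 6.26 and 5.56 in wild type and at 6.13, 6.01, 6.04 and 5.49 in knockout. Here too replicate 4 of each group stood below the 3 others, by 0.55 and 0.57, and those 6 other arrays lay within 6.01 to 6.26. The change was -0.053 (SE 0.17, 95% interval -0.43 to 0.32, limma adjusted p = 0.885), and 0.089 without knockout replicate 4.

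Clock, the DNA-binding partner of BMAL1, had the largest negative estimate of the members. It was at 9.33, 9.10, 9.18 and 9.42 in wild type and at 8.76, 9.05, 9.20 and 8.63 in knockout. Knockout replicates 1, 2 and 4 lay below the wild type arrays, and knockout replicate 3 lay among them. The change was -0.35 (SE 0.13, limma adjusted p = 0.115); its 95% interval of -0.64 to -0.056, which is not adjusted for the number of genes, leaves out 0. It was -0.26 without knockout replicate 4 and -0.44 without knockout replicate 3.

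The REV-ERB genes, which close the second loop by repressing Arntl, showed no call. Nr1d1 was at 7.0, 7.02, 6.85 and 7.39 in wild type and at 6.96, 7.28, 6.93 and 6.69 in knockout. The highest array of all was wild type replicate 4 and the lowest was knockout replicate 4, with the other 6 between 6.85 and 7.28. The change was -0.099 (SE 0.14, 95% interval -0.42 to 0.22, limma adjusted p = 0.728), and -0.0080 without knockout replicate 4.

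Nr1d2 ranged from 6.45 to 6.77 in wild type and from 6.45 to 6.65 in knockout, with a change of -0.12 (SE 0.10, 95% interval -0.33 to 0.093, limma adjusted p = 0.488). It had the smallest spread of the members among the knockout arrays, with an SD of 0.088, and knockout replicate 4 lay within the other 3.

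Dbp encodes a PAR bZIP activator that carries the rhythm from E-boxes to D-box genes. It was at 5.27, 5.26, 5.09 and 5.21 in wild type and at 5.43, 5.50, 5.23 and 5.41 in knockout. Knockout replicates 1, 2 and 4 were above all wild type arrays, and replicate 3 was within their range. The change of 0.18 (SE 0.09, 95% interval -0.019 to 0.39) did not pass the test (limma adjusted p = 0.235). It kept its sign in all 19 alternatives, several of which, such as other filters and variance models, cannot move the estimate. When each array was left out the change ran from 0.14 to 0.24.

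**Figure D2:**
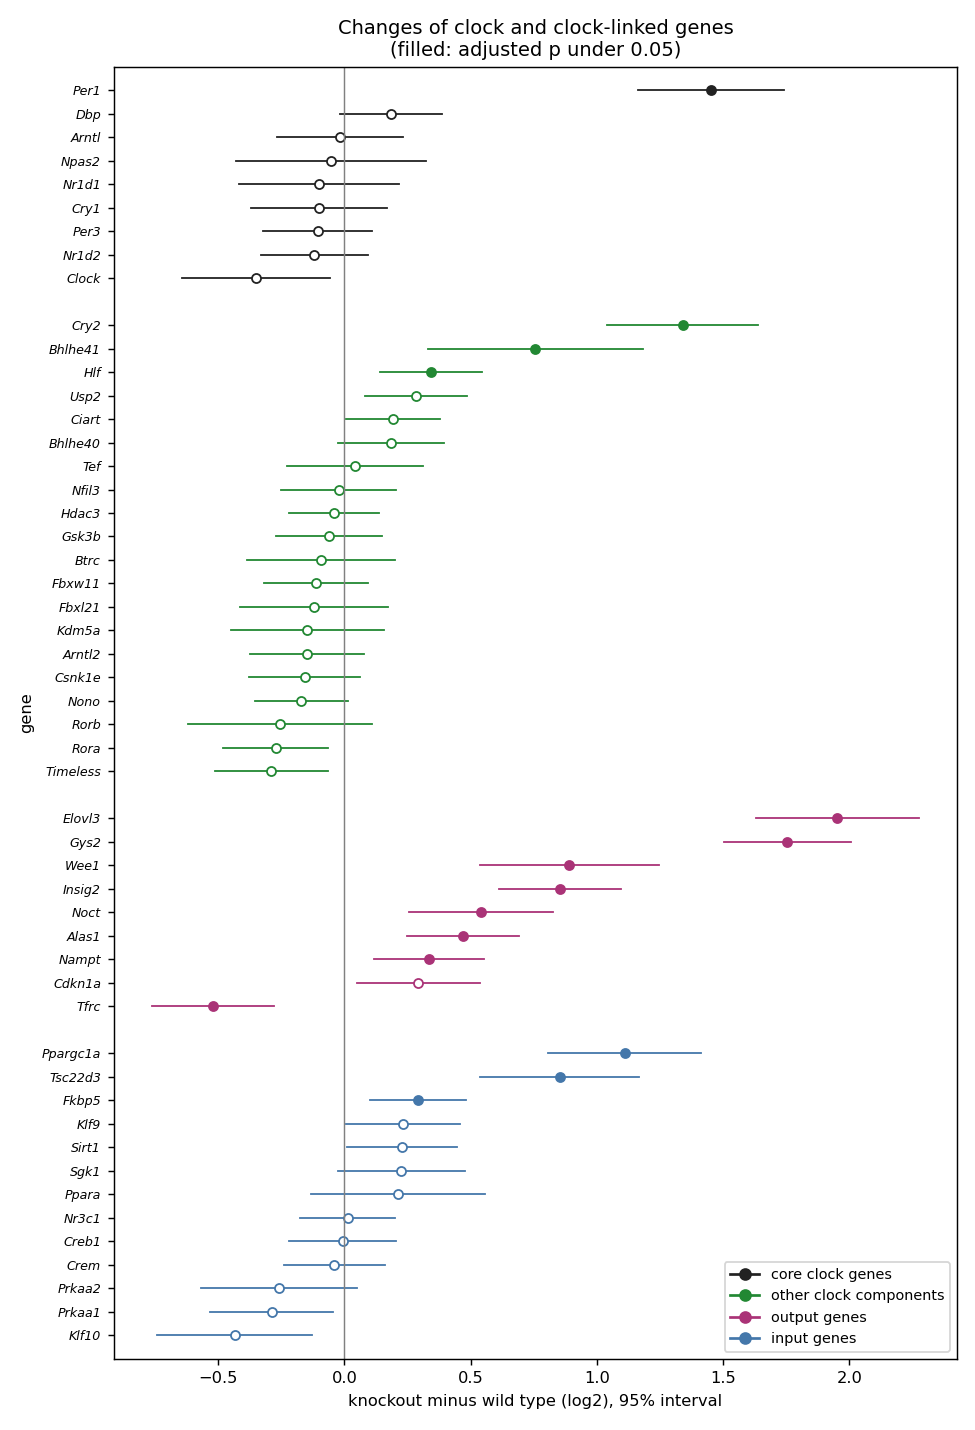
Change in knockout against wild type (horizontal axis, log2, with 95% intervals from limma that are not adjusted for the number of genes) of each tested gene of 4 lists; filled points have an adjusted p under 0.05. Per1 at 1.45 stands alone among the core clock genes, Cry2 at 1.34 leads the other components, and 8 of 9 output genes are filled.

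Among the other components of the clock, fixed as a list of 24 with earlier results of these data known, 20 had a row of their own and were tested. Of these 3 were higher, 0 lower and 17 did not pass, a share of 15% against 13.8% of all genes; the median change was -0.077. At an unadjusted p under 0.05 limma gave 5 higher and 2 lower. Beside Cry2 the risers were Bhlhe41 and Hlf. The count was 1 gene without knockout replicate 1, without knockout replicate 2 and without wild type replicate 1; it was 3 without knockout replicate 4.

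Bhlhe41 encodes DEC2, a repressor that competes for E-boxes. It was at 4.12, 4.33, 4.60 and 4.53 in wild type and at 5.37, 5.45, 5.28 and 4.51 in knockout. The first 3 knockout arrays lay above all wild type arrays and replicate 4 lay among them. The change was 0.76 (SE 0.19, limma adjusted p = 0.0243) and 0.97 without knockout replicate 4 (adjusted p = 8.22e-04); the call was lost when any 1 of knockout replicates 1 to 3 or of wild type replicates 1 and 2 was left out, with adjusted p-values of 0.0595 to 0.0763.

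Hlf encodes a PAR bZIP factor of the same family as DBP. It was at 4.58, 4.62, 4.47 and 4.47 in wild type and at 4.99, 4.95, 4.72 and 4.86 in knockout, without overlap. The change was 0.34 (SE 0.09, limma adjusted p = 0.0294), and the call was lost in 9 of 19 alternatives (adjusted p up to 0.0897), among them those without knockout replicate 1 or 2 and those without replicate 1, 3 or 4 of the wild type. Bhlhe40, which encodes the related repressor DEC1, had a change of 0.18 (SE 0.10, limma adjusted p = 0.253), and Gsk3b, a kinase that acts on several clock proteins, one of -0.063 (SE 0.10, adjusted p = 0.740). The other 15 changes lay between -0.29 and 0.28. A further 3 genes of the list, named after their values were seen, had groups that did not overlap and no call; with Cry2 and Hlf that made 5 of 20, near the 20.2% of all genes. They were Rora, the activator opposed to the REV-ERB receptors (-0.27, limma adjusted p = 0.0822), Ciart, a repressor of the CLOCK and BMAL1 pair (0.19, adjusted p = 0.168), and the deubiquitinase gene Usp2 (0.28, adjusted p = 0.0640).

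Genes known to follow the clock in liver were mostly called. Of a list of 12, 10 had a row, 9 were tested, 7 were higher and 1 lower, and Cdkn1a did not pass (0.29, limma adjusted p = 0.113). The share of 88.9% compares with 13.8% of all genes, and the median change was 0.54. For the 10 hepatocyte markers the share was 70% and the median change 0.53. Several of the output genes were already known to be higher in these data when their list was written, and most are also controlled by other liver regulators. The count of output genes is therefore a description and not evidence on the clock. Leaving out each array in turn gave 6 to 8 calls, with 6 when knockout replicate 1, knockout replicate 2 or wild type replicate 1 was the one left out and 8 without knockout replicate 4. All 9 were called with an intensity trend or array weights, where Cdkn1a passed (adjusted p = 0.0297 and 0.0426).

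Elovl3, a fatty acid elongase gene with a strong daily rhythm in male liver, was at 5.50, 5.48, 5.76 and 6.11 in wild type and at 7.93, 7.54, 7.58 and 7.62 in knockout. The lowest knockout array stood well above the highest wild type array, and the change was 1.95 (SE 0.15, limma adjusted p = 1.04e-05). Gys2, the liver glycogen synthase gene and a direct CLOCK target, ran from 4.58 to 4.81 and from 6.22 to 6.69, a change of 1.75 (SE 0.11, adjusted p = 5.01e-06). The groups did not overlap, and wild type replicate 4 was the lowest array.

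Wee1, a mitotic inhibitor kinase gene with E-boxes, was at 6.21, 5.96, 6.67 and 6.37 in wild type and at 7.47, 7.03, 7.32 and 6.95 in knockout, a change of 0.89 (SE 0.16, limma adjusted p = 0.00371). Insig2, a REV-ERB target that retains the sterol sensor in the endoplasmic reticulum, was higher by 0.85 (SE 0.11, adjusted p = 4.13e-04). Neither pair of groups overlapped.

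The rises of the other output genes were smaller. Noct was higher by 0.54 (SE 0.13, limma adjusted p = 0.0174), with knockout replicate 4 at 6.63 beside the highest wild type array at 6.63. Its call was lost without knockout replicate 1 or 2 and without replicate 1 of the wild type (adjusted p-values 0.0519 to 0.0572). Alas1, the entry enzyme of haem synthesis, was higher by 0.47 (SE 0.10, adjusted p = 0.0103). Nampt, which makes the NAD precursor that feeds back on the clock through SIRT1, was higher by 0.33 (SE 0.10, adjusted p = 0.0456). That call was lost in 10 of 19 alternatives (adjusted p up to 0.119): without any 1 of knockout replicates 1 to 3, without replicate 1, 2 or 4 of the wild type, at the stricter threshold, without a filter, with median centring and with the replicate number as a block (0.0547). Tfrc, the transferrin receptor gene, was the 1 output gene to fall, by 0.52 (SE 0.11, adjusted p = 0.00930), and its groups did not overlap. Cyp7a1, the rate-limiting enzyme of bile acid synthesis, lay under the level filter at 1.61 to 2.14 in wild type and 1.94 to 2.24 in knockout (two-sided exact permutation p = 0.429).

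**Figure D3:**
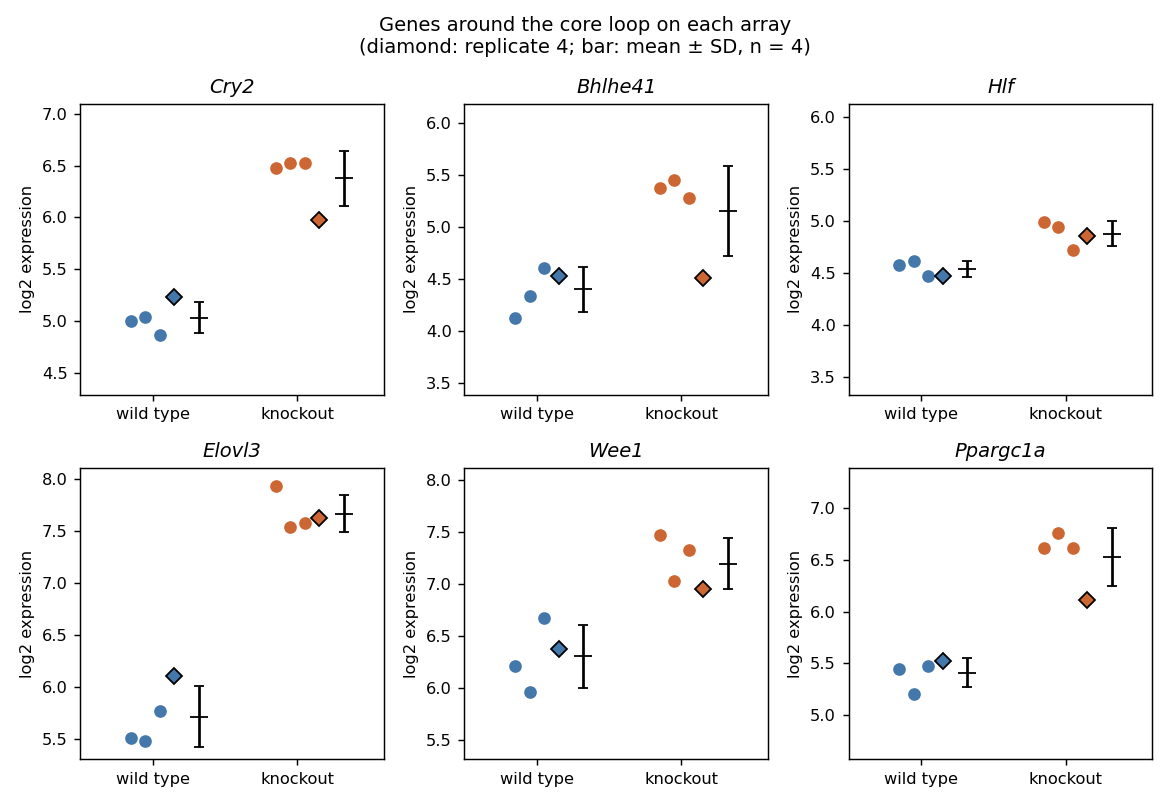
Log2 expression (vertical axes, each spanning the same range) of Cry2, Bhlhe41, Hlf, Elovl3, Wee1 and Ppargc1a on the 4 wild type (blue) and 4 knockout (orange) arrays; diamonds are replicate 4 and bars the mean ± SD, n = 4. The knockout diamond is the lowest knockout array in Cry2 (5.98), Bhlhe41 (4.51), Wee1 (6.95) and Ppargc1a (6.11), and only for Bhlhe41, of these 6 genes, does it fall among the wild type arrays.

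A list of 14 input genes held genes through which hormones and nutrients act on the clock. It also held genes that such signals induce, among them Tsc22d3, Fkbp5 and Sgk1. There were 3 calls among 13 tested, all upward, or 23.1% against 13.8% of all genes, with a median change of 0.21. At an unadjusted p under 0.05 limma gave 5 higher and 2 lower. Ppargc1a encodes the coactivator that works with ROR receptors on Arntl. It was at 5.44, 5.21, 5.47 and 5.52 in wild type and at 6.61, 6.75, 6.62 and 6.11 in knockout, a change of 1.11 (SE 0.14, limma adjusted p = 3.42e-04). Its groups did not overlap, while Arntl itself had a change of -0.017.

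The glucocorticoid-induced genes Tsc22d3 and Fkbp5 were higher by 0.85 (SE 0.14, limma adjusted p = 0.00239) and 0.29 (SE 0.09, adjusted p = 0.0450). The Fkbp5 call was lost in 10 of 19 alternatives (adjusted p up to 0.126), among them leaving out any 1 array other than knockout replicate 4. The receptor gene Nr3c1 had a change of 0.013 (adjusted p = 0.947), and the induced genes Sgk1 and Klf9 had changes of 0.23 each (adjusted p = 0.240 and 0.175); these 3 are named after their values were seen. The AMPK catalytic subunit genes Prkaa2 and Prkaa1, whose kinase marks CRY1 for breakdown, had changes of -0.26 (SE 0.14, adjusted p = 0.279) and -0.29 (SE 0.11, adjusted p = 0.119).

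Knockout replicate 4 was lower than the other knockout arrays for most of the clock genes. It was the lowest of all 8 arrays for 6 of 9 members, namely Arntl, Clock, Npas2, Per3, Cry1 and Nr1d1, where it was the lowest for 26.1% of all genes tested. With Per1 it was the lowest of the 4 knockout arrays for 7 of 9, against 42.8% of all genes. That share was 62.1% among genes with a mean of 6 or more, where the array was the lowest knockout array for 5 of 6 members. The related lists had this too: it was the lowest knockout array for 12 of 20 other components, 7 of 9 output genes and 10 of 13 input genes, with medians of -0.14, -0.23 and -0.27 against the other knockout arrays. Its value minus the mean of knockout replicates 1 to 3 was -0.57 for Npas2, -0.44 for Cry1, -0.37 for Clock, -0.36 for Nr1d1 and for Per1, -0.34 for Arntl, -0.22 for Per3, -0.045 for Nr1d2 and 0.023 for Dbp. The median over the members was -0.36, against -0.069 over all genes tested. As deposited, knockout replicate 4 was thus low in both arms of the loop at once, and near the other knockout arrays for Nr1d2 and Dbp.

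The same array had the highest lower quartile (2.68, others 2.55 to 2.62) and the lowest upper quartile (5.63, others 5.68 to 5.76) of all rows. Among the 6532 genes with a mean of 6 or more it was the lowest array for 38.9% and differed from the other knockout arrays by a median of -0.15; of the 6 members in that range it was the lowest for 4. After cyclic loess, which removes differences between arrays that follow intensity, it was the lowest for 3 of 9 members and for 18.3% of all genes, and the median over the members was -0.23 against -0.0055. After centring each array on its median it was the lowest for 7 of 9, against 35.0%. The count over the members thus moved with the scaling. For 7 members the array lay below the mean of the other 3 as deposited, after median centring and after cyclic loess. Median centring shifts all genes of an array alike, and after it Nr1d2 (-0.15) and Dbp (-0.081) lay below as well. The median over all genes tested was also below 0 in each setting, at -0.069, -0.17 and -0.0055 in that order. The share of all genes that lay below in every setting was not counted.

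**Figure D4:**
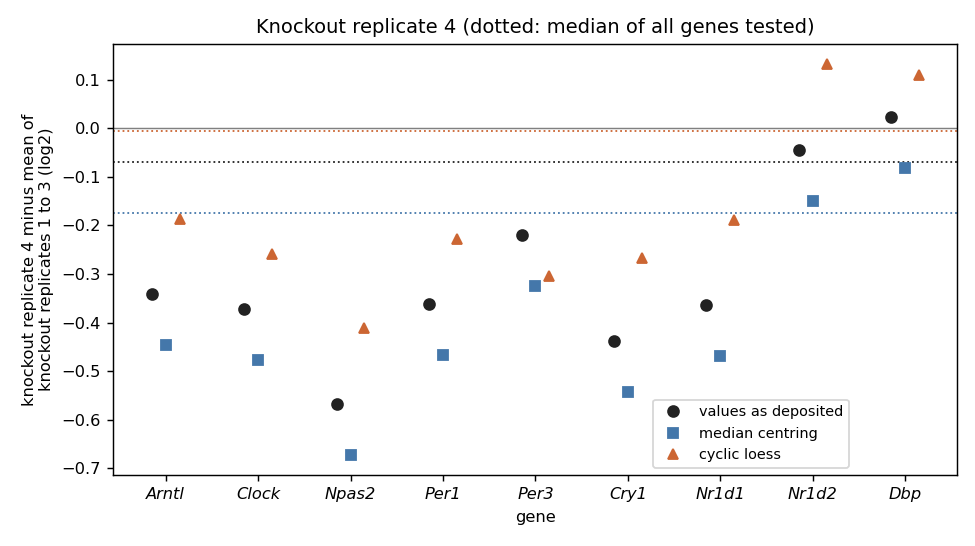
Value of knockout replicate 4 minus the mean of knockout replicates 1 to 3 (vertical axis, log2) for each clock gene, from the values as deposited (circles), after median centring (squares) and after cyclic loess (triangles); dotted lines are the medians over all genes tested. As deposited, 7 genes lie between -0.57 and -0.22 and Nr1d2 and Dbp lie near 0.

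Among the 4 wild type arrays replicate 4 was the highest for Clock, Per1, Per3 and Nr1d1, where it was so for 25.3% of all genes, and the lowest for Arntl and Npas2, where it was so for 26.3%. Arntl and Npas2 were therefore lowest on replicate 4 in both groups, while Clock, Per1, Per3 and Nr1d1 were highest of the wild type arrays on replicate 4 of the wild type and lowest of the knockout arrays on replicate 4 of the knockout. The patterns opposed and alike between the groups thus held for 4 and 2 of 9 members. The share of all genes with either joint pattern was not counted, and with 1 such array in each group no test was made.

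The genes most like Arntl and Dbp were sought over the 8 arrays, as the smallest mean absolute difference between values that had each gene's own mean taken off. For Arntl these were Rnf216 (0.033), Larp7 (0.038) and Mark2 (0.039), where the median over 13832 genes compared was 0.18. For Dbp they were Atg4b (0.034), Dffa (0.039) and C1qtnf4 (0.041), against a median of 0.19. None of these 6 genes passed the test between the genotypes (limma adjusted p-values 0.233 to 0.989). They were chosen for likeness to Arntl and Dbp, which did not pass either, so this follows from the choice. No clock gene was among them.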

How the data were processed

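The authors deposited log2 expression values of 41345 array rows on 8 arrays, made with RMA through the oligo package per the submitters' processing notes; no source used here gives their versions. RMA subtracts background, equalises distributions and compresses changes of dim genes; arrays have no read depth, and 4 per group limit the precision. The platform annotation gave 1 symbol to 23521 rows; for genes with several rows the row of highest mean was kept. Genes with a mean above the 40th percentile of row means (3.32), 15380 in number, were fitted by genotype in R 4.3.3 with limma 3.58.1 (lmFit, then eBayes; degrees of freedom 6 residual and 5.05 prior) and p-values adjusted over all of them after Benjamini and Hochberg. Exact permutation tests used 70 arrangements, with a smallest p of 0.0286. Named were all members; of the other clock lists each gene called and the 2 brightest not called; and the 3 genes most like Arntl and Dbp, without predicted genes, clones and small RNAs. Members and lists were chosen with earlier results of these data known. Alternatives were other filters, row rules, scalings, variance models, array weights, a replicate block, a threshold of 0.01 and leaving out each array. The fit was tested on simulated data. Sequences come from RefSeq (GRCm38.p6); motifs were searched and figures drawn in Python 3.11.15.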

Additional observations from a re-analysis of the deposited data

Results flagged for a closer look

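In 64 groups of 4 values examined, 3 held an array whose gap to the nearest other array took up most of the group's range, where chance gives about 1 in 20. Cry2 on knockout replicate 4 was 5.98, with the other knockout arrays at 6.48 to 6.52. Gys2 on wild type replicate 4 was 4.58, with the others at 4.78 to 4.81. Tsc22d3 on wild type replicate 1 was 3.94, with the others at 4.45 to 4.55.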

How the results depend on the processing

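Of 32 genes followed, 17 kept their direction and their side of the threshold under every alternative run on them, Per1, Per3, Nr1d2, Dbp and Cry2 among them. The 17 also hold the cell type markers Cdh5, Clec4f and Dcn, whose values are not given above. The genes most like Arntl and Dbp and those named after their values were seen were not followed. At an adjusted p under 0.01 the calls numbered 1071 over all genes (2119 at 0.05), 1 among other clock components and 5 among output genes. Other components gave 5 calls with the 60th percentile filter, and 1 to 3 when each array was left out. Input genes gave 5 calls after quantile normalization. Members called were 2 with an intensity trend and 1 to 2 when each array was left out. Knockout replicate 4 was the lowest array for 3 members after cyclic loess. Changes of uncalled genes crossed 0 for Arntl with cyclic loess (0.018) and array weights (0.034), for Npas2 with array weights (0.016) and for Alb with cyclic loess (-0.030). When each array was left out, they ran from -0.081 to 0.069 for Arntl, -0.19 to 0.089 for Npas2, -0.16 to 0.0080 for Cry1, -0.20 to 0.0091 for Nr1d1 and -0.10 to 0.0030 for Gsk3b. The cause of these shifts was not tested. Same-numbered arrays of the groups had deviations correlated at 0.061, 0.020, 0.26 and 0.21 across genes, and 2 of 4 wild type arrays matched their own number best, so the numbers were not taken to pair the samples. With the replicate block 1082 genes were higher and 1133 lower, Per1 kept its call, and among the genes named the Nampt call was the 1 that ended.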
